A study of Mus musculus with 9 samples.

Results

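The genes described here are 40 genes of hepatic stellate cells and of the extracellular matrix, chosen by symbol from a fixed list of names. All 40 are among the 23183 gene symbols of the deposited liver tables, and all 40 have a value above 0 in at least 1 liver, as do 16889 symbols in all. Liver RNA came from 9 male C57BL/6J mice at postnatal day 100, with 3 mice a group and 1 library a mouse. The ND group ate a normal diet with 14% fat and is numbered 6, 7 and 9, while the HFD group ate a high-fat diet with 60% fat and is numbered 1, 2 and 3, each diet lasting 10 weeks. The PRF 50 group (numbered 3, 9 and 10) ate the same high-fat diet and was given 50 mg/kg a day of PRF by mouth over the last 5 weeks. PRF is a fraction rich in polymethoxyflavones, prepared from leaves of Jinkyool (Citrus sunki) and dosed in carboxymethyl cellulose. The study's methods do not say whether ND and HFD mice received the carboxymethyl cellulose, so PRF and its carrier cannot be told apart here.

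Stellate cells lie between the hepatocytes and the sinusoidal endothelium, store vitamin A in the healthy liver, and are the main source of scar collagen when the liver is injured. On activation they increase platelet-derived growth factor receptors and contractile proteins and secrete the fibrillar collagens I, III and V, which assemble into stiff fibres, whereas collagen IV, laminins, nidogen and perlecan form the thin sheets of basement membrane that endothelial cells and other cells also make. Lysyl oxidases cross-link the fibres, metalloproteinases cut them, and tissue inhibitors of metalloproteinases (TIMPs) hold that cutting back.

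The deposited values were read as log2(FPKM + 1), where FPKM is a count of fragments scaled by transcript length and library size, so they allow levels to be compared between genes. Low values move in steps of 1 fragment, and the size of that step in genes with a single transcript put 1 FPKM at an estimated 11 to 17 fragments per kilobase, depending on the mouse. By that estimate, 19 of the 40 genes averaged at least 100 fragments a mouse, 19 averaged at least 10 and under 100, and Lox and Timp1 averaged under 10. Col1a1 rested on about 39 to 177 fragments a mouse, Col3a1 on 122 to 489, and Timp1 on 0 to 5, so small differences in the rarer genes were not detectable at this depth. The hepatocyte genes Apoa1 and Ttr averaged 9561 and 5392 FPKM, as the liver label implies. Albumin (Alb), the chief hepatocyte product, is listed at 0 in all 9 livers, so a value of exactly 0 can be a failed estimate and not an absent transcript.

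The 40 genes lay far apart in level. Fibronectin (Fn1, 162 FPKM on average) and Col18a1, the endostatin precursor (138 FPKM), stood highest, and hepatocytes are known to make both in quantity. Next came the small proteoglycans decorin (Dcn, 77.3 FPKM) and biglycan (Bgn, 27.4 FPKM), the collagen-binding glycoprotein Sparc (16.5 FPKM) and the filament gene vimentin (Vim, 12.3 FPKM). The fibrillar collagens were far lower, led by Col3a1 at 4.01 FPKM, and basement membrane genes were led by Col4a1 at 3.08 FPKM. The receptor genes Pdgfrb and Pdgfra were near or under 1 FPKM in every group, and Lox, a cross-linking oxidase, was lowest of the 40 and is listed at 0 in HFD 1 and PRF 50 3.

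**Figure D1:**
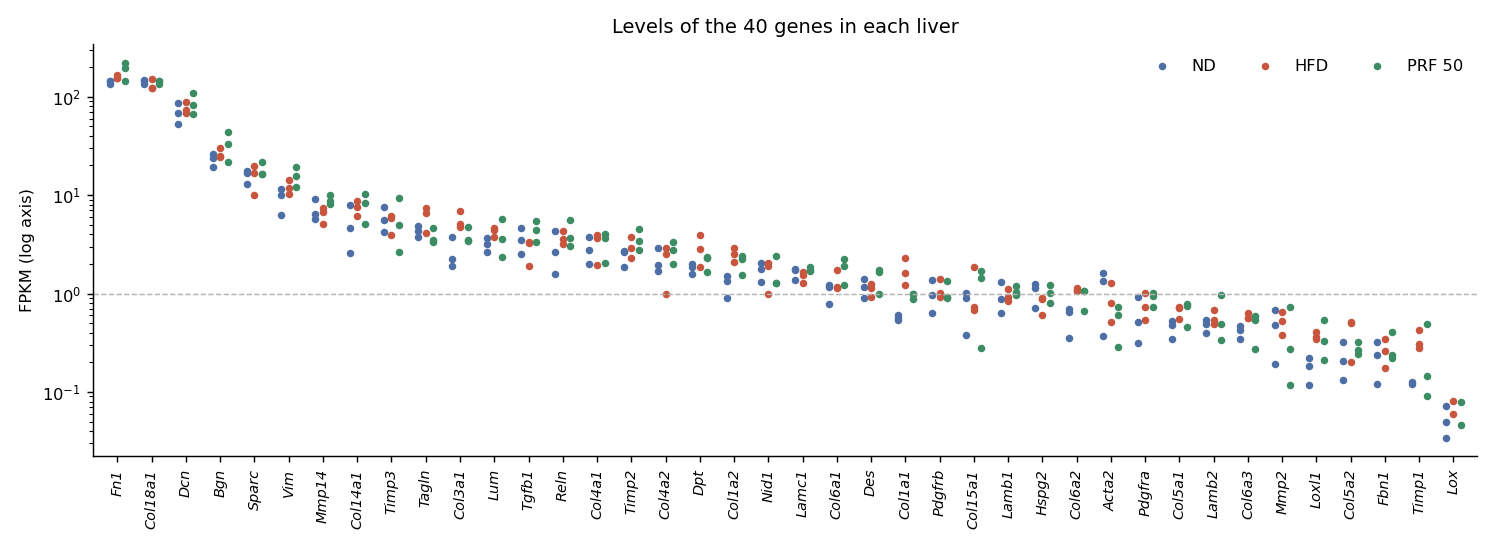
Level of each of the 40 genes in each liver, in FPKM on a log axis, with genes ordered by their mean, points colored by group and a dashed line at 1 FPKM; livers listed at 0 are not drawn. Fn1, Col18a1 and Dcn sit at the top (162, 138 and 77.3 FPKM on average), and Col3a1, the highest fibrillar collagen, is at 4.01 FPKM.

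Several of the collagen genes are neighbors in the genome (GENCODE M21, GRCm38). Col4a1 (chr8:11198423-11312826, minus strand) and Col4a2 (chr8:11312805-11449287, plus strand), whose products form 1 triple helix, start head to head and their annotated ends overlap by 22 bases. Col3a1 (chr1:45311538-45349706) and Col5a2 (chr1:45374321-45503282) face each other 24614 bases apart. Col6a2 and Col6a1 on chromosome 10 are separated by 85161 bases, and Dcn and Lum, also on chromosome 10, by 46984 bases. Col1a1 (chr11:94936224-94953042) and Col1a2 (chr6:4504814-4541544), which encode both chains of collagen I, lie on different chromosomes.

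Promoters from RefSeq (GRCm38.p6) matched 28 of the 40 symbols, and Col1a1 is among the symbols without an entry. The 250 bases before each start were searched on both strands for TATAAA (the TATA box), for CCAAT (the CAAT box) and for GGGCGG (the GC box). TATAAA was found in 2 of the 28 (Col3a1 and Vim) and in 12.4% of all 32851 promoters in the table, CCAAT in 10 of 28 and 33.8%, and GGGCGG in 17 of 28 and 32.7%. CCAAT was found in 4 of 6 basement membrane promoters and 1 of 3 fibrillar collagen promoters, and GGGCGG in 4 of 6 and 2 of 3. These promoters are shown because they belong to a fibrillar collagen with TATAAA, a fibrillar collagen with GGGCGG, a basement membrane gene (Nid1, nidogen 1) and the metalloproteinase Mmp14. All are on the plus strand, 5′ to 3′, at chr1:45311288-45311537 for Col3a1, chr2:27886175-27886424 for Col5a1, chr13:13437352-13437550 for Nid1 (up to the start annotated by GENCODE) and chr14:54431348-54431597 for Mmp14. Capitals mark the words found, read on either strand, and in Mmp14 a CCAAT and a GGGCGG share 1 base.
Col3a1: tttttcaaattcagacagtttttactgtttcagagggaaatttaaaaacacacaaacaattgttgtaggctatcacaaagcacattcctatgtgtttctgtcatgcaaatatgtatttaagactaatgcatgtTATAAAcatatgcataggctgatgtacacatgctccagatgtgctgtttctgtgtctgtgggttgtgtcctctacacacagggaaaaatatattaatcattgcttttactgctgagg
Col5a1: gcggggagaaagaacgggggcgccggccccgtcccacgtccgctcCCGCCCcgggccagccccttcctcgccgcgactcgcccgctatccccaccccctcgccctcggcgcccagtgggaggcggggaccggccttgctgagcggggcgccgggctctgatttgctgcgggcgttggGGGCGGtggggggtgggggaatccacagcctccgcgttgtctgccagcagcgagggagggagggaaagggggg
Nid1: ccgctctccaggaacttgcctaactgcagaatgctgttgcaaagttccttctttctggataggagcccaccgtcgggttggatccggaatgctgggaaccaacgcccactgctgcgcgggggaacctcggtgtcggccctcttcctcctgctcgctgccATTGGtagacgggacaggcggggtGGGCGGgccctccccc
Mmp14: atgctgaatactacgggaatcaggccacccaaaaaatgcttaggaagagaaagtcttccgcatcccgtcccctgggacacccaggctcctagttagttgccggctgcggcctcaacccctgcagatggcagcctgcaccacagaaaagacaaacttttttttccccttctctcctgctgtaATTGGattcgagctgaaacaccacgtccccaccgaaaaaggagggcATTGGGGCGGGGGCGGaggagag

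The miR-29 family is known to target collagen transcripts in stellate cells, and its letters were looked for in the longest annotated 3′ end of each gene. The mature sequences (RefSeq, GRCm38.p6) share the seed AGCACCA at bases 2 to 8, in capitals.
mmu-miR-29a-3p: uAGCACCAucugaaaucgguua
mmu-miR-29b-3p: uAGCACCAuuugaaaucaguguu
mmu-miR-29c-3p: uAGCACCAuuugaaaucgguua
The complement TGGTGCT was found in 15 of the 40 genes (37.5%) and in 13.1% of 21020 protein-coding genes. It was found in 4 of 5 fibrillar collagens (not Col1a2) and 3 of 7 basement membrane genes, and in none of the 4 contractile and filament genes or the 4 proteoglycan and dermatopontin genes. Longer untranslated ends hold more matches by length alone, and among genes with at least 1000 bases of it the first 1000 held a match in 5 of 20 genes of the list and in 1028 of 10241 protein-coding genes. The matches below (GRCm38, 27 bases each, sense strand, with TGGTGCT in capitals) set fibrillar collagens beside basement membrane genes, at chr11:94952526-94952552 for Col1a1, chr1:45348970-45348996 for Col3a1, chr8:11199754-11199780 for Col4a1, chr8:11448347-11448373 for Col4a2 and chr1:153220061-153220087 for Lamc1. Col4a1 and Lamc1 are read from the minus strand.
Col1a1: ggaaggaatttcTGGTGCTatagaagc
Col3a1: aaaatgtctcaaTGGTGCTataataaa
Col4a1: accgtcacaacaTGGTGCTactccccc
Col4a2: ggaaggccacgtTGGTGCTtatccttc
Lamc1: tatctgacacacTGGTGCTattaatta
The miRNAs themselves were not measured in these libraries, and a match of letters is a description and not a working site.

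The HFD and ND groups were compared to see what the high-fat diet did to matrix transcripts. Transcripts of the fibrillar collagens were higher in every HFD liver than in every ND liver for 4 of the 5 genes (Col1a1, Col1a2, Col3a1 and Col5a1), by 1.47- to 3.01-fold in mean FPKM. With no minimum level, 8.7% of all genes were higher in this way and 8.03% lower. The 7 basement membrane genes overlapped between the groups, as most genes did, with ratios of mean FPKM from 0.763 to 1.20. None of the 40 genes passed the test across all genes, so these are differences in measured values and not called changes.

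Col1a1, which encodes the alpha 1 chain of collagen I, was 0.568, 0.540 and 0.605 FPKM in ND 6, 7 and 9, and 1.22, 2.32 and 1.62 FPKM in HFD 1, 2 and 3. The ND livers lay close together and the lowest HFD liver was above all of them. On the log2(FPKM + 1) scale Col1a1 was 0.65 ± 0.03 in ND and 1.42 ± 0.29 in HFD (SD, n = 3 each). Its log2 fold change was 0.77 (standard error 0.16, 95% interval 0.40 to 1.15, adjusted p = 0.0798 from limma), which understates a 3.01-fold ratio of mean FPKM because of the added 1. Col1a1 reached the minimum level for testing, a mean of 1 FPKM, only through the HFD group, where it was higher, and with no minimum its adjusted p was 0.136. Without HFD 1 its log2 fold change was 0.91 with an adjusted p of 0.0462, and without HFD 2 it fell under the minimum level and had no test.

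Col3a1, which forms thinner fibres with collagen I, was 1.91, 2.25 and 3.71 FPKM in the ND livers and 4.78, 6.84 and 5.03 FPKM in the HFD livers. ND 9 came closest to the HFD range but stayed under it. The log2 fold change of Col3a1 was 0.87 (standard error 0.20, 95% interval 0.41 to 1.34, adjusted p = 0.101 from limma), and without ND 9 it was 1.08 with an adjusted p of 0.0374. Col1a2, the other collagen I chain, was 0.909, 1.50 and 1.35 FPKM in ND and 2.08, 2.88 and 2.49 FPKM in HFD, again without overlap. For Col1a2 the log2 fold change came to 0.63 (standard error 0.15, 95% interval 0.29 to 0.97, adjusted p = 0.107 from limma). Collagen V, which starts fibre assembly, was under the minimum level and not tested. Col5a1 ran from 0.349 to 0.530 FPKM in ND and from 0.547 to 0.738 FPKM in HFD, a narrow separation, and Col5a2 overlapped (0.133 to 0.322 and 0.204 to 0.512 FPKM).

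**Figure D2:**
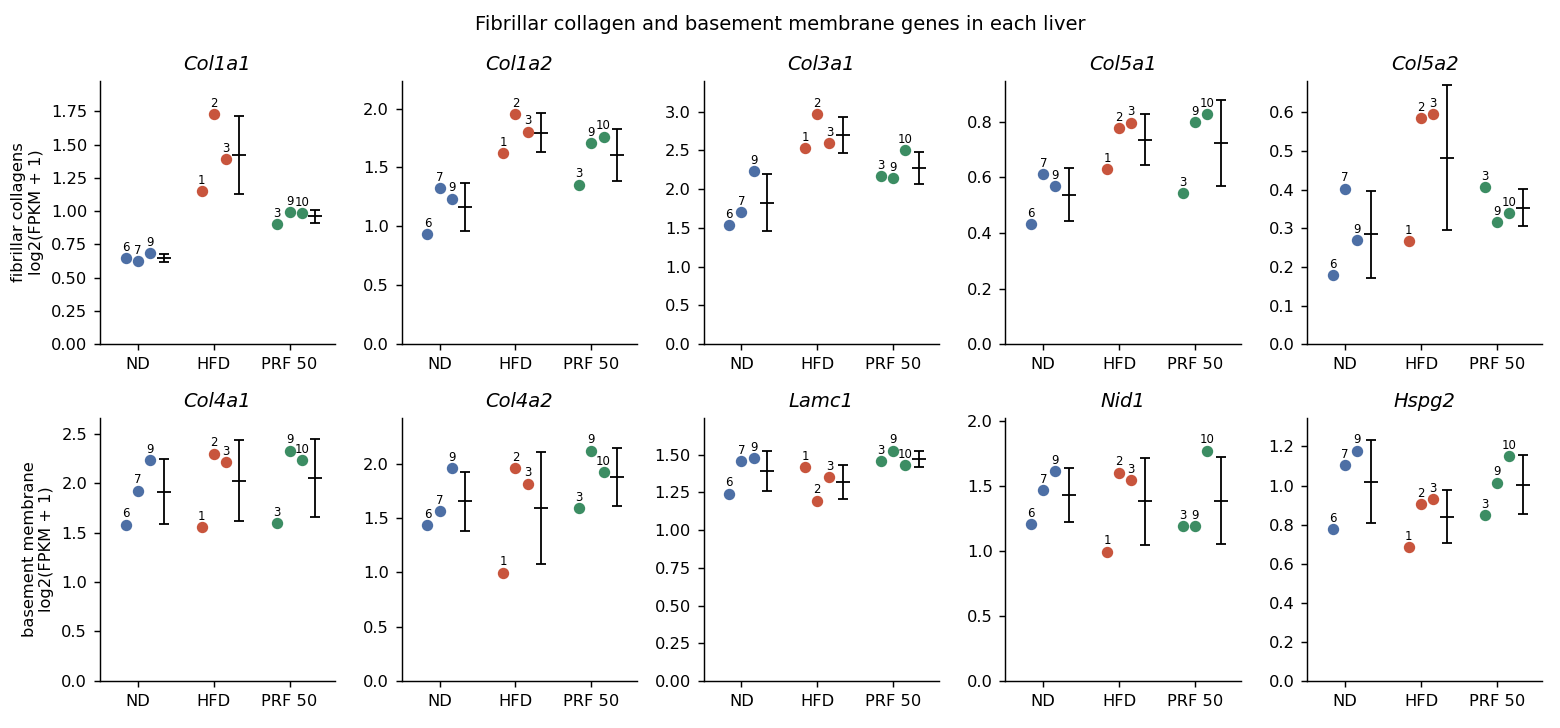
Level, as log2(FPKM + 1), of fibrillar collagen and basement membrane genes in each liver, by group, with each mouse marked by its number and a black bar for the mean ± SD of 3 mice. Col1a1, Col1a2 and Col3a1 are higher in each HFD liver than in each ND liver, with Col1a1 at 0.65 in ND and 1.42 in HFD on average, while the groups overlap for Col4a1.

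Basement membrane genes varied within both groups. Col4a1 was 1.99, 2.80 and 3.71 FPKM in ND 6, 7 and 9 and 1.93, 3.92 and 3.65 FPKM in HFD 1, 2 and 3, so that the lowest and the highest of these 6 livers are both HFD livers. For Col4a1 the log2 fold change was 0.11 with a 95% interval from -0.43 to 0.65 (limma). Among the 4 tested basement membrane genes the median log2 fold change was -0.06, from -0.07 for Lamc1, the laminin gamma 1 chain, to 0.11 for Col4a1. HFD 1 was the lowest of all 9 livers for 4 of the 7 genes. Without HFD 1 the median was 0.19 and 3 of the 4 differences were above 0, against 1 of 4 with it. Without ND 9 the median was 0.07, again with 3 of 4 above 0, and with any other mouse left out it lay between -0.15 and -0.04. Sinusoidal endothelial cells also express some genes of basement membrane components. The sum of 10 of their markers was 30.7, 66.8 and 93.8 FPKM in HFD 1, 2 and 3 against 78.8 to 128 FPKM in ND. HFD 1 was thus lowest in both, and the part of these cells in the basement membrane values was not tested. In whole liver, fewer cells of a type and less RNA per cell cannot be told apart.

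Set against each other within a liver, the 5 fibrillar collagens summed to 0.476, 0.476 and 0.469 times the 7 basement membrane genes in ND 6, 7 and 9. In HFD 1, 2 and 3 the ratio was 1.15, 1.03 and 0.876, and in PRF 50 3, 9 and 10 it was 0.731, 0.585 and 0.651. The fibrillar sums of ND 6, 7 and 9 were 3.86, 5.14 and 6.36 FPKM and the basement membrane sums 8.12, 10.8 and 13.6 FPKM. The closeness of the ND ratios depended on Col3a1, since without it they were 0.241, 0.268 and 0.195, against 0.452 to 0.529 in HFD and 0.316 to 0.350 in PRF 50. No liver of any group had a ratio within the range of another group. The ratio was chosen after the values had been seen and was not tested. The mean ratio in HFD was 2.16 times that in ND (2.02 to 2.31 with any 1 mouse left out). The mean of the log2(FPKM + 1) values, in which the more abundant genes weigh less than in a sum but still more than the rarer ones, gave the same order, since fibrillar minus basement membrane was -0.32, -0.35 and -0.47 in ND, 0.21, 0.20 and 0.11 in HFD, and -0.08, -0.21 and -0.23 in PRF 50.

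**Figure D3:**
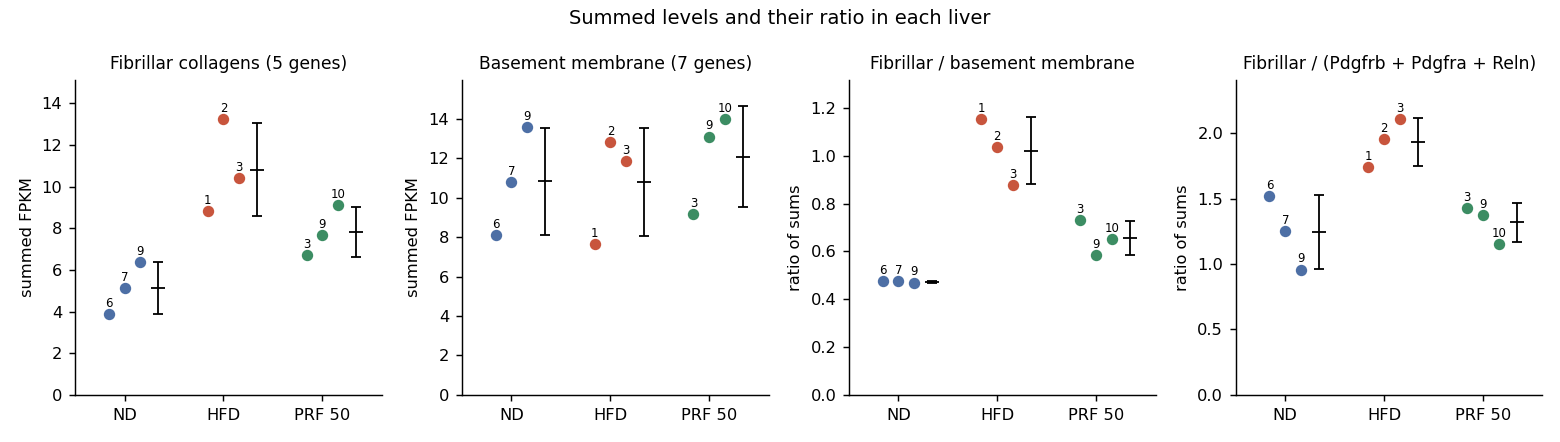
Summed FPKM of 5 fibrillar collagen and of 7 basement membrane genes, and the fibrillar sum divided by the basement membrane sum and by that of Pdgfrb, Pdgfra and Reln, in each liver by group, with mice marked by number and a black bar for the mean ± SD of 3 mice. On the basement membrane scale the ND livers lie at 0.469 to 0.476, PRF 50 at 0.585 to 0.731 and HFD at 0.876 to 1.15; on the stellate scale ND and PRF 50 overlap.

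Against stellate markers the fibrillar collagens were higher in HFD too, but by less. Divided by the sum of Pdgfrb, Pdgfra and reelin (Reln, a glycoprotein that stellate cells secrete in liver), the fibrillar sum was 1.52, 1.25 and 0.956 in ND 6, 7 and 9 and 1.74, 1.96 and 2.11 in HFD 1, 2 and 3, again without overlap. The mean ratio was 1.56 times higher in HFD by this measure. With decorin below the line the values were 0.0726 to 0.0758 in ND and 0.120 to 0.151 in HFD, and with Lrat, the enzyme that esterifies retinol for storage in stellate cells, 1.53 to 2.12 and 2.73 to 3.76. With transgelin (Tagln), a contractile protein of activated stellate cells and smooth muscle, the groups overlapped (0.902 to 1.71 in ND and 1.41 to 2.14 in HFD).

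The stellate markers themselves overlapped between HFD and ND. Reln was 1.59, 2.63 and 4.36 FPKM in ND and 3.61, 4.35 and 3.18 FPKM in HFD, with a log2 fold change of 0.34 (95% interval -0.22 to 0.91). ND 6 was low and ND 9 at the height of HFD 2. Pdgfrb, which passes the growth signal of platelet-derived growth factor in stellate cells and reached the minimum level only through HFD, ran from 0.639 to 1.37 FPKM in ND and 0.926 to 1.40 FPKM in HFD, and Pdgfra ran from 0.317 to 0.925 and from 0.540 to 1.02 FPKM. Of the contractile and filament genes, Acta2 (alpha smooth muscle actin, the usual sign of activated stellate cells) was 1.34, 1.60 and 0.374 FPKM in ND and 0.520, 0.801 and 1.28 FPKM in HFD, with the lower mean in HFD. Tagln was 4.28, 4.84 and 3.72 FPKM in ND and 4.13, 6.55 and 7.37 FPKM in HFD. Desmin (Des) overlapped with a log2 fold change of -0.03, and Vim with 0.37.

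Of the other matrix genes, some separated HFD from ND and others did not. The proteoglycan lumican (Lum), which sets fibre spacing, was 2.66, 3.22 and 3.68 FPKM in ND and 3.78, 4.60 and 4.46 FPKM in HFD, a narrow separation (log2 fold change 0.34, adjusted p = 0.277 from limma). Fn1 was 135, 144 and 143 FPKM in ND and 165, 155 and 155 FPKM in HFD, also without overlap (log2 fold change 0.17, 95% interval -0.07 to 0.41). Dcn, the most abundant proteoglycan, was 53.3, 67.8 and 87.1 FPKM in ND and 73.3, 87.7 and 68.6 FPKM in HFD, and these ranges overlapped. Among genes too low for the test, Col6a2 (0.352 to 0.689 and 1.05 to 1.14 FPKM), Col6a3 (0.342 to 0.470 and 0.564 to 0.634 FPKM), the oxidase Loxl1 (0.118 to 0.223 and 0.344 to 0.403 FPKM) and Timp1 (0 to 0.126 and 0.279 to 0.422 FPKM) were higher in each HFD liver than in each ND liver, with ratios of mean FPKM of 1.94, 1.42, 2.13 and 4.08. Timp1 rested on at most 1 fragment in each ND liver and on 3 to 5 in each HFD liver. Loxl1 rested on about 5 to 8 fragments in ND and 13 to 20 in HFD, and Col6a2 on about 19 to 39 and 56 to 92. Col14a1, which coats fibres, ran from 2.59 to 7.89 FPKM in ND and from 6.17 to 8.77 FPKM in HFD. Col18a1 was 143, 148 and 135 FPKM in ND and 150.1, 122 and 121 FPKM in HFD, a log2 fold change of -0.12.

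Across HFD vs ND, 25 of the 40 genes reached the minimum level, 2 of them (Col1a1 and Pdgfrb) only through HFD, and 15 did not. With limma, 0 of the 25 had an adjusted p under 0.05, against 1.33% of all 9978 tested genes (133, of which 0.702% higher and 0.631% lower). At an unadjusted p under 0.05 there were 4 of 25 (background 15.1%), with 4 higher in HFD (Col1a2, Col3a1, Lum and, tested only through HFD, Col1a1, background 7.82%) and 0 lower (background 7.26%). Groups did not overlap for 5 that were higher in HFD (those 4 and Fn1), with 10.7% in the background, and for 0 that were lower, with 10% in the background. The median log2 fold change of the tested members was 0.17 against -0.01 for all tested genes, and 16 of 25 were above 0 (background 48.3%). With no minimum level, all 40 genes could be fitted, and 9 were higher at an unadjusted p under 0.05 (background 6.4%), 0 were lower (background 5.42%) and 0 had an adjusted p under 0.05. Groups did not overlap for 10 of the 40 that were higher (background 8.7%) and 0 that were lower (background 8.03%). The mean in HFD was above that in ND for 28 of the 40 genes and below it for 12.

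The count of 4 was 2 without HFD 2 and 7 without ND 9, and the count of adjusted calls was 1 without HFD 1 (Col1a1), without ND 9 (Col3a1) or with all 9 mice in 1 fit (Col1a1, adjusted p = 0.0385). The median of 0.17 was 0.05 without ND 6 and 0.27 without ND 9, and the 133 genes called in all were 41 without HFD 2, 35 without HFD 3, 63 without ND 6 and 39 without ND 7.

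PRF 50 mice were compared with HFD mice to see what the citrus fraction did on the same diet. For 5 of 5 fibrillar collagens the PRF 50 mean was below the HFD mean, with ratios from 0.551 for Col1a1 and 0.697 for Col3a1 up to 0.986 for Col5a1. For 7 of 7 basement membrane genes it was above, with ratios from 1.01 to 1.27. Of these, 5 were tested, Lamb1 only through PRF 50, and the 95% intervals of all 5 included 0. The direction did not hold after quantile normalization or without HFD 1 (2 of 5 above 0 in each). None of the 40 genes passed the test across all genes in this comparison either.

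Col1a1 was 0.874, 0.988 and 0.983 FPKM in PRF 50 3, 9 and 10, beneath the lowest HFD liver (1.22 FPKM) and above the highest ND liver (0.605 FPKM). Its log2 fold change was -0.46 (standard error 0.16, 95% interval -0.83 to -0.09, adjusted p = 0.162 from limma), and -0.31 without HFD 2, the HFD liver with the most Col1a1. Col1a1 reached the minimum level only through HFD, and with no minimum its adjusted p was 0.223. Col3a1 was 3.49, 3.42 and 4.69 FPKM in the PRF 50 livers, with PRF 50 10 just below HFD 1 (4.78 FPKM), and its log2 fold change was -0.43 (standard error 0.15, 95% interval -0.79 to -0.07, adjusted p = 0.180 from limma). Col1a2 was 1.56, 2.27 and 2.39 FPKM in PRF 50 and overlapped with HFD (log2 fold change -0.19). Col5a1 (0.458 to 0.776 FPKM) and Col5a2 (0.245 to 0.326 FPKM) in PRF 50 also overlapped with HFD.

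Col4a1 was 2.03, 4.03 and 3.69 FPKM in PRF 50 3, 9 and 10, a spread like that of the other groups. Its partner Col4a2 was 2.01, 3.35 and 2.80 FPKM in PRF 50 and 0.997, 2.89 and 2.52 FPKM in HFD, and had the largest basement membrane difference (log2 fold change 0.29, 95% interval -0.33 to 0.90). Lamc1 was the only basement membrane gene with no overlap, at 1.74, 1.88 and 1.69 FPKM in PRF 50 and 1.67, 1.29 and 1.55 FPKM in HFD. The median over the 5 tested genes was 0.08. It was -0.01 without HFD 1, where 2 of 5 genes were above 0, and just below 0 after quantile normalization, and 2 of 4 were above 0 without PRF 50 10. Lamb1 reached the minimum level only through PRF 50. The ratio of fibrillar to basement membrane sums averaged 0.656 in PRF 50 and 1.02 in HFD, which is 0.642 times (0.600 to 0.686 with any 1 mouse left out). Divided by Pdgfrb, Pdgfra and Reln, the fibrillar sum was 1.43, 1.37 and 1.15 in PRF 50 3, 9 and 10, under all HFD livers. Divided by Tagln the order turned, with a mean 1.13 times higher in PRF 50.

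Mmp14, a membrane-bound metalloproteinase that cleaves fibrillar collagen and activates Mmp2, had the smallest p of the 28 tested genes in PRF 50 vs HFD, though with no minimum level that of Col1a1 was as small (0.0236 for each in limma). It was 8.67, 10.1 and 8.16 FPKM in PRF 50 3, 9 and 10 and 7.48, 6.70 and 5.03 FPKM in HFD 1, 2 and 3. All 3 PRF 50 livers were above all 3 HFD livers, though ND 7 (9.21 FPKM) lay within the PRF 50 range. Its log2 fold change was 0.44 (standard error 0.14, 95% interval 0.10 to 0.78, adjusted p = 0.147 from limma). Mmp2, a gelatinase of stellate cells, was not tested and ran from 0.118 to 0.726 FPKM in PRF 50 and from 0.376 to 0.643 FPKM in HFD. The inhibitors overlapped, with Timp2 from 2.76 to 4.56 FPKM in PRF 50 and 2.30 to 3.77 FPKM in HFD and Timp3 from 2.65 to 9.39 and from 3.94 to 6.21 FPKM.

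The contractile gene Tagln was 3.33, 4.61 and 3.48 FPKM in PRF 50, against 4.13, 6.55 and 7.37 FPKM in HFD, so that PRF 50 9 overlapped with HFD 1. The log2 fold change of Tagln was -0.53 (95% interval -0.98 to -0.07, adjusted p = 0.193 from limma). Acta2 was 0.600, 0.733 and 0.288 FPKM in PRF 50 and overlapped. Tgfb1, the ligand that drives collagen transcription in stellate cells, was 5.49, 3.30 and 4.43 FPKM in PRF 50 and 1.92, 3.36 and 3.25 FPKM in HFD. PRF 50 9 lay inside the HFD range, and the log2 fold change was 0.50 (95% interval 0.02 to 0.97, adjusted p = 0.226 from limma). Vim was 15.6, 12.1 and 19.3 FPKM in PRF 50 and 10.2, 14.2 and 11.8 FPKM in HFD, with overlap. The receptors and Reln overlapped as well, with log2 fold changes of -0.04 for Pdgfrb and 0.09 for Reln.

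Kupffer cells, the resident macrophages of the liver, also make Tgfb1 and Vim. Their 8 markers were all higher in PRF 50 than in HFD, 7 with an adjusted p under 0.05 in limma (background 3.59%). Their sum was 419, 252 and 275 FPKM in PRF 50 3, 9 and 10, against 71.2, 122 and 123 FPKM in HFD and 60.3, 111 and 148 FPKM in ND. Cd5l was the most abundant of them, and none of the 8 was at 0 in any group. The log2 fold changes with the smallest p in limma were those of Timd4 (1.49, with a standard error of 0.19 and an adjusted p of 0.0150), Vsig4 (1.27, adjusted p = 0.0182), Csf1r (1.40, adjusted p = 0.0256) and Adgre1 (1.60, adjusted p = 0.0263). The 7 calls were 6 without HFD 1 or PRF 50 9, 3 without PRF 50 10, 1 without HFD 2 and 0 without HFD 3 or PRF 50 3, and Timd4 kept a log2 fold change of 1.32 to 1.62 throughout. PRF 50 3 had the highest Kupffer sum and the highest Tgfb1 of all 9 livers. PRF 50 9 had a higher Kupffer sum than ND 7 and 9 but less Tgfb1 (3.30 FPKM, against 3.53 and 4.59 FPKM). Vim was highest in PRF 50 10 (19.3 FPKM). The part of Kupffer cells in the Tgfb1 and Vim values was not tested.

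Of the 40 genes, 28 were tested in PRF 50 vs HFD, 3 of them (Col1a1, Col6a2 and Lamb1) only through 1 group, and 12 were not. With limma, 0 had an adjusted p under 0.05, against 3.59% of 10084 tested genes (362, of which 1.43% higher and 2.16% lower). At an unadjusted p under 0.05 there were 5 of 28 (background 20.2%), where 2 were higher in PRF 50 (Mmp14 and Tgfb1, background 8.47%) and 3 were lower (Col1a1, Col3a1 and Tagln, background 11.8%). Groups did not overlap for 2 that were higher (Mmp14 and Lamc1, background 10.9%) and 2 that were lower (Col1a1 and Col3a1, background 15.3%). The median log2 fold change was 0.08 against -0.02 for all tested genes, and 19 of 28 were above 0 (background 47%; 15 of 28 after quantile normalization). The median moved with the level minimum, to 0.02 over all 40 genes with none and to 0.23 at 10 FPKM. With no minimum level, 1 of the 40 was higher and 3 were lower at an unadjusted p under 0.05 (background 7.72% and 8.3%), and 0 had an adjusted p under 0.05. Groups did not overlap for 2 of the 40 that were higher (background 10.4%) and 2 that were lower (background 10.6%). The PRF 50 mean was above the HFD mean for 23 of the 40 genes and below it for 17.

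The count of 5 at an unadjusted p was 2 without HFD 2 and 3 without PRF 50 3, and the median was -0.04 without PRF 50 10. The 362 genes called in all were 215 without HFD 1, 31 without HFD 2, 15 without HFD 3, 40 without PRF 50 3 and 168 without PRF 50 10.

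PRF 50 vs ND sets the treated mice on the high-fat diet against the normal diet, and it shares its ND and PRF 50 mice with the comparisons above, so its values are given beside theirs and not as separate support. Vim had the smallest p of the 26 tested genes, while with no minimum level that of Col1a1 was smaller (0.00343 against 0.0247 in limma). Vim was 6.35, 9.91 and 11.7 FPKM in ND 6, 7 and 9, and all 3 PRF 50 livers (12.1 to 19.3 FPKM) lay above them. Its log2 fold change was 0.71 (standard error 0.23, 95% interval 0.17 to 1.24, adjusted p = 0.272 from limma), beside 0.37 in HFD vs ND and 0.34 in PRF 50 vs HFD. The 8 Kupffer markers were also higher in PRF 50 than in ND for 8 of 8 genes. Of these, 0 had an adjusted p under 0.05 (background 0.458%) and 8 an unadjusted p under 0.05 (limma, background 12.5%). The part of Kupffer cells in the Vim value was not tested. With ND 9 left out or with all 9 mice in 1 fit 2 of the 8 were called, and with PRF 50 9 left out 1 was.

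Col1a2 was higher in each PRF 50 liver (1.56 to 2.39 FPKM) than in each ND liver (0.909 to 1.50 FPKM), with PRF 50 3 only just above ND 7. Its log2 fold change was 0.44 (standard error 0.16, 95% interval 0.07 to 0.82, adjusted p = 0.321 from limma). Col1a1 was under the minimum level in this comparison (with no minimum its adjusted p was 0.206), though its PRF 50 values (0.874 to 0.988 FPKM) were all above its ND values (0.540 to 0.605 FPKM), a 1.66-fold ratio of means. Col3a1 overlapped, since ND 9 (3.71 FPKM) was above PRF 50 3 and 9, and its log2 fold change was 0.45 (95% interval -0.01 to 0.91). Col6a1, a chain of the beaded filaments of collagen VI, was 0.780, 1.23 and 1.17 FPKM in ND, 1.13, 1.75 and 1.17 FPKM in HFD and 1.22, 2.23 and 1.92 FPKM in PRF 50. PRF 50 3 fell within the ND range, and the log2 fold change was 0.43 (standard error 0.17, 95% interval 0.02 to 0.83, adjusted p = 0.376 from limma). Timp2 was 1.86, 2.72 and 2.67 FPKM in ND and 2.76, 3.42 and 4.56 FPKM in PRF 50, without overlap.

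Basement membrane genes in PRF 50 vs ND had a median log2 fold change of 0.09 over 6 tested genes, from -0.05 for Nid1 to 0.23 for Col4a2, and none was without overlap. The median was -0.02 without ND 6, 0.21 without ND 9 and 0.05 without PRF 50 9. The fibrillar to basement membrane ratio averaged 1.38 times higher in PRF 50 than in ND (1.30 to 1.46 with any 1 mouse left out). With Pdgfrb, Pdgfra and Reln below the line the groups overlapped, and the mean was 1.06 times that of ND.

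Of the 40 genes, 26 were tested in PRF 50 vs ND, 2 of them (Lamb1 and Pdgfrb) only through PRF 50, and 14 were not. With limma, 0 had an adjusted p under 0.05, against 0.458% of 10051 tested genes (46, of which 0.159% higher and 0.298% lower). At an unadjusted p under 0.05 there were 4 of 26 (background 12.5%), where 4 were higher in PRF 50 (Vim, Col1a2, Col6a1 and Timp2, background 6.06%) and 0 were lower (background 6.44%). Groups did not overlap for 3 that were higher (Col1a2, Vim and Timp2, background 8.19%) and 0 that were lower (background 11.8%). The median log2 fold change was 0.21 (0.35 at a minimum of 10 FPKM) against -0.03 for all tested genes, with 21 of 26 above 0 (background 43.4%). With no minimum level, 4 of the 40 were higher and 0 lower at an unadjusted p under 0.05 (background 6.35% and 4.87%), and 0 had an adjusted p under 0.05. Groups did not overlap for 4 of the 40 that were higher (background 8.7%) and 0 that were lower (background 8.32%). The PRF 50 mean was above the ND mean for 32 of the 40 genes and below it for 8.

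The count of 4 was 1 without ND 6 or without PRF 50 9 and 2 without PRF 50 10, and the median was 0.10 without ND 6 and 0.38 without ND 9. The 46 genes called in all were 17 without ND 6, 4 without ND 7, 8 without PRF 50 3, 26 without PRF 50 9 and 71 without PRF 50 10.

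**Figure D4:**
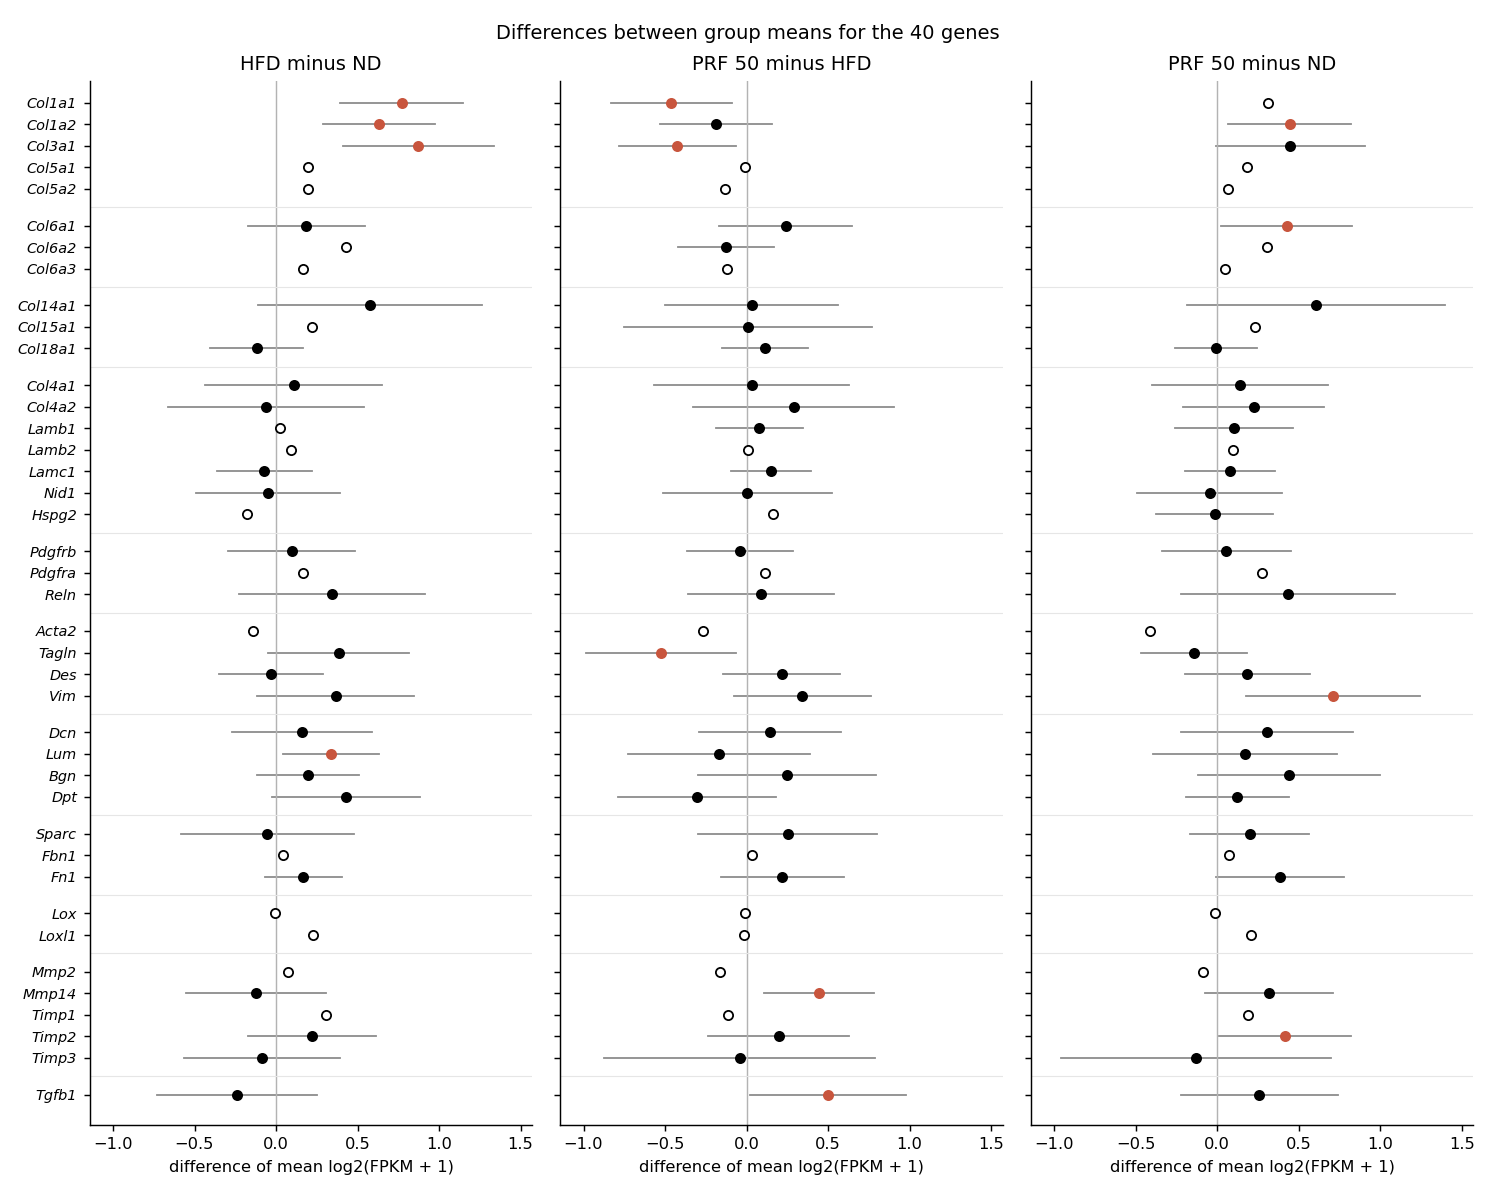
Difference in mean log2(FPKM + 1) for each of the 40 genes in HFD vs ND, PRF 50 vs HFD and PRF 50 vs ND, with genes grouped by role, filled points for tested genes with their 95% intervals, red for an unadjusted p under 0.05 and open points for genes below the level minimum, which were not tested. Col3a1, Col1a1 and Col1a2 lie at 0.87, 0.77 and 0.63 in HFD vs ND, and the 4 tested basement membrane genes lie between -0.07 and 0.11.

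Livers within a group differed as well. ND 6 had the lowest value of all 9 livers for 4 of 5 fibrillar collagens, 3 of 3 stellate receptor and reelin genes and 3 of 4 proteoglycan and dermatopontin genes. Its sum of Pdgfrb, Pdgfra and Reln was 2.54 FPKM, against 4.12 and 6.66 FPKM in ND 7 and 9. The Kupffer and sinusoidal sums were also lowest in ND 6 within the ND group, so its low values extended beyond stellate genes. PRF 50 10 had the highest value of all 9 livers for 3 of 4 proteoglycan and dermatopontin genes, with Dcn at 109 FPKM and Bgn at 43.6 FPKM. HFD 2 was highest for 3 of 5 fibrillar collagens and had the most Col4a1 within HFD. Dermatopontin (Dpt), which binds decorin, was highest in HFD 3, at 3.93 FPKM against 1.58 to 2.01 FPKM in ND and 1.64 to 2.34 FPKM in PRF 50. Col15a1, a collagen of vessel walls, varied most within PRF 50, at 1.45, 1.70 and 0.282 FPKM in mice 3, 9 and 10. Fn1 was 198, 221 and 143 FPKM in the same mice, with PRF 50 10 down at the ND level.

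Sparc and Fbn1 (fibrillin 1, the scaffold of elastic fibres) showed no separation in any comparison. Sparc was lowest in HFD 1 and ran from 13.0 to 21.8 FPKM in the other 8 livers, and Fbn1 stayed at or under 0.411 FPKM in all 9. Des was 0.894 to 1.40 FPKM in ND, 0.917 to 1.25 FPKM in HFD and 0.985 to 1.72 FPKM in PRF 50. Hspg2 (perlecan) was 0.713, 1.15 and 1.26 FPKM in ND, 0.606, 0.874 and 0.905 FPKM in HFD and 0.800, 1.02 and 1.22 FPKM in PRF 50, lower on average in HFD but overlapping. Lamb2, the laminin beta 2 chain, stayed between 0.339 and 0.971 FPKM.

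Further stellate genes outside the 40 were read from a list of 19 markers of the quiescent cell, summing to 159, 189 and 173 FPKM in HFD 1, 2 and 3, 127, 149 and 184 FPKM in ND 6, 7 and 9, and 289, 307 and 273 FPKM in PRF 50 3, 9 and 10. The separation of PRF 50 in these sums rested on Steap4 and Fcna, which other liver cells also make. Without them, a choice made after the values were seen, the 17 other markers summed to 94.0, 164 and 179.7 FPKM in PRF 50, 103 to 126 FPKM in HFD and 83.4 to 127 FPKM in ND, and the groups overlapped. In HFD vs ND 8 of the 16 tested were higher, with a median log2 fold change of 0.01. Steap4, a metalloreductase that hepatocytes also express and the most abundant of the list, rose by 0.57 (standard error 0.09, adjusted p = 0.0330 from limma) and was the only call. No fit with 1 mouse left out called it (adjusted p 0.0576 to 0.165, log2 fold change 0.54 to 0.60), nor did the fit of all 9 mice (adjusted p = 0.516) or that with no minimum level (0.0505). In PRF 50 vs HFD 15 of 16 were higher, with a median of 0.33, and Fcna, a ficolin that Kupffer cells also make, rose by 1.27 (standard error 0.21, adjusted p = 0.0289 from limma) as the only call, which was kept without PRF 50 9 and lost with any other mouse left out (adjusted p 0.0512 to 0.0847) or with no minimum level (0.0647). Adjusted calls made up 1.33% of all tested genes in HFD vs ND and 3.59% in PRF 50 vs HFD. In PRF 50 vs ND 6 had an unadjusted p under 0.05 (limma, background 12.5%) and 0 had an adjusted p under 0.05. There 15 of 17 were higher, with a median of 0.46. Lhx2, among those higher, reached the minimum level only through PRF 50. The vitamin A storage gene Lrat overlapped among the groups, at 1.52 to 2.13 in ND, from 1.74 upward in HFD and 1.89 to 2.94 in PRF 50 on the log2(FPKM + 1) scale.

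Genes that fold, modify and trim collagen form another list. Of 18 such genes 13 were tested, with median log2 fold changes of -0.005, 0.07 and 0.17 in HFD vs ND, PRF 50 vs HFD and PRF 50 vs ND, 0 adjusted calls in each, and 2, 0 and 0 at an unadjusted p under 0.05 (limma). Those 2 were the collagen chaperone Serpinh1 (log2 fold change 0.46, adjusted p = 0.130) and Pcolce, which speeds the trimming of procollagen (0.30, adjusted p = 0.305), both higher in each HFD liver than in each ND liver and named after their values were seen. Of 26 genes of TGF-beta and CTGF signalling 16 were tested, with 5, 11 and 7 above 0 in the same order of comparisons, 0 adjusted calls, and 2, 0 and 3 at an unadjusted p under 0.05. For each list in this paragraph the background at that threshold was 15.1%, 20.2% and 12.5% of all tested genes, in that order. Smad7, the inhibitor that the pathway induces, had log2 fold changes of -0.58 in HFD vs ND and -0.61 in PRF 50 vs ND (adjusted p = 0.139 and 0.298), and it too was named after its values were seen. Of 4 PDGF ligands 1 was tested (Pdgfa), of 15 matrix turnover genes 5, and of 11 collagen receptors 4, 4 and 5. These 3 lists had 0 adjusted calls in every comparison, and a single gene at an unadjusted p under 0.05, Adam17 in PRF 50 vs HFD (log2 fold change 0.30, adjusted p = 0.127).

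Other cells that make matrix were read from their markers, and their part in the results was not tested. Portal fibroblast markers (10 genes, 1 tested) summed to 3.91, 5.23 and 5.45 FPKM in HFD, 5.04, 3.96 and 3.59 FPKM in ND and 4.53, 4.60 and 3.62 FPKM in PRF 50, led by Entpd2, with Clec3b at 0 in all 3 HFD livers. Smooth muscle markers (6 genes, 2 tested, led by Mylk) summed to 8.06 to 10.6 FPKM over the 9 livers, and mesothelial markers (6 genes, 0 tested, led by Gpm6a) to 0.333 to 2.83 FPKM. In every comparison each of these 3 lists had 0 adjusted calls and 0 at an unadjusted p under 0.05 (limma). Adipocyte markers (5 genes) summed to 0.638, 6.78 and 13.5 FPKM in HFD 1, 2 and 3, 0.689, 1.04 and 2.16 FPKM in ND 6, 7 and 9, and 0.286, 0.645 and 0 FPKM in PRF 50 3, 9 and 10. Cfd was the most abundant, Plin1 and Lep were at 0 in all 9 livers, and Adipoq was above 0 only in HFD 2 and 3. The only tested gene, Cfd, had log2 fold changes of 1.43 in HFD vs ND and -2.14 in PRF 50 vs HFD (adjusted p = 0.389 and 0.155 from limma), the latter at a level minimum it reached only through HFD. HFD 1, the lowest of the HFD livers in Col1a1, Col1a2 and Col3a1, also had the lowest adipocyte sum of that group. HFD 2, the highest of them in the same genes, had a lower adipocyte sum than HFD 3. The part of adipose tissue in the collagen values was not tested.

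The sinusoidal endothelial list, led by Clec4g, was lower in HFD than in ND for 9 of 10 genes, with 0 adjusted calls and 4 at an unadjusted p under 0.05 (limma), and higher in PRF 50 than in HFD for 8 of 10, with 0 of either. Over all tested genes, 15.1% had an unadjusted p under 0.05 in HFD vs ND (7.26% lower) and 20.2% in PRF 50 vs HFD. Adjusted calls were 1.33% and 3.59% of all tested genes. The sinusoidal sums in PRF 50 3, 9 and 10 were 74.1, 71.5 and 122 FPKM. Vascular endothelial markers (6 genes, led by Plvap) summed to 20.7, 32.7 and 34.4 FPKM in HFD, 26.5, 28.6 and 32.0 FPKM in ND and 37.5, 33.5 and 47.6 FPKM in PRF 50. Recruited myeloid markers (8 genes, led by Cd9) summed to 13.5 to 15.8 FPKM in HFD, up to 27.7 FPKM in ND and 73.0, 35.0 and 15.1 FPKM in PRF 50 3, 9 and 10, and Cd9 fell by 0.99 in HFD vs ND (standard error 0.16, adjusted p = 0.0309 from limma), a call kept without HFD 2 and lost with any other mouse left out (adjusted p 0.0618 to 0.107), with all 9 mice in 1 fit (0.0555) or with no minimum level (0.0929). Other genes of that list, named after their values were seen, differed from Cd9, since Ccr2 and Gpnmb, both too low for the test, were higher in each HFD liver than in each ND liver. In PRF 50 vs HFD 4 of 4 tested genes were higher, with 0 adjusted calls and 2 (Ly6c2 and S100a9) at an unadjusted p under 0.05 in limma. Ly6c2 reached the minimum level only through PRF 50, where it was higher. Lymphocyte markers (7 genes, led by Nkg7) summed to 1.26 to 4.47 FPKM and cholangiocyte markers (6 genes, led by Spp1) to 25.6 to 41.5 FPKM. Hepatocyte markers (10 genes, led by Apoa1) summed to 16619.7 to 26488.7 FPKM, with 3 of 9 tested genes lower in HFD than in ND at an unadjusted p under 0.05 and 0 adjusted calls. The part of these cell types in the values of the 40 genes was not tested.

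**Figure D5:**
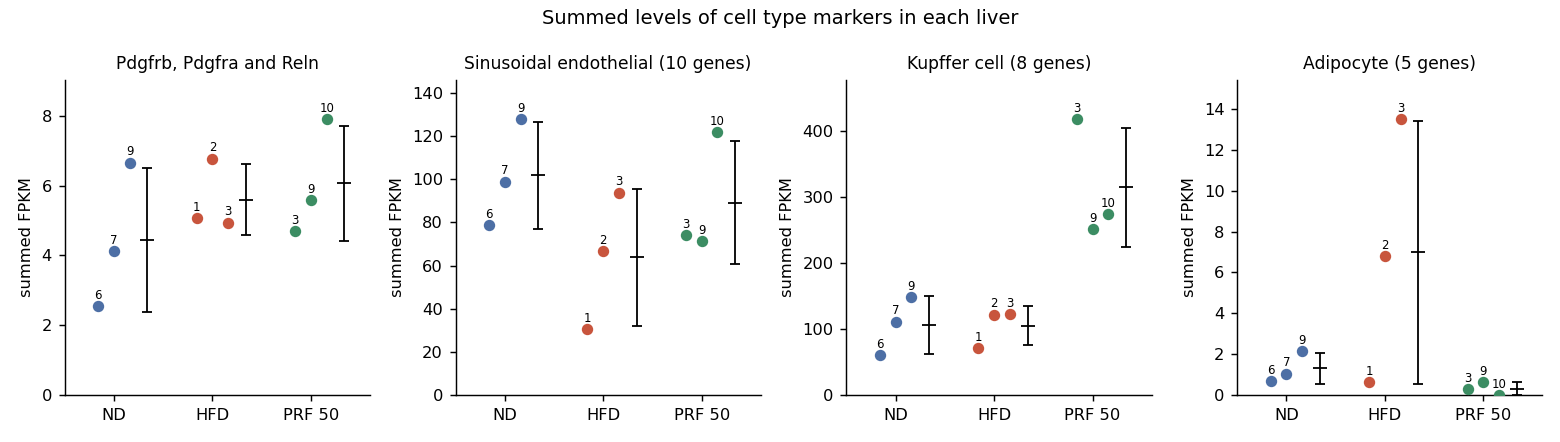
Summed FPKM in each liver, by group, of Pdgfrb, Pdgfra and Reln, of 10 sinusoidal endothelial markers, of 8 Kupffer cell markers and of 5 adipocyte markers, with mice marked by number and a black bar for the mean ± SD of 3 mice. The Kupffer sum is 252 to 419 FPKM in PRF 50 and at most 148 FPKM in the other livers, the stellate sums overlap among the groups, and the adipocyte sum is highest in HFD 2 and 3.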

How the data were processed

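Liver RNA of 9 mice (3 ND, 3 HFD and 3 PRF 50, grouped by the sample labels) was analysed. By the authors' account, FASTX_Trimmer and BBMap trimmed the reads, TopHat mapped them (the submitters' processing notes give mm10), and Cufflinks gave FPKM. For geometric normalization the authors name EdgeR. The authors deposited log2 values, 1 per symbol and mouse, read here as log2(FPKM + 1); the added 1 is inferred from a lowest value of 0, and versions and annotation are not stated.

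FPKM was recovered as 2 raised to the value, minus 1. Each comparison was fitted with limma 3.58.1 (lmFit, eBayes with a trend) in R 4.3.3 on its 6 mice, for every gene whose mean over those mice reached 1 FPKM, with Benjamini-Hochberg adjustment over all of them and a threshold of 0.05. Every p and 95% interval is from limma and tests both directions. Ratios of sums were computed in FPKM and not tested. Python 3.11.15, pandas 2.3.3 and NumPy 2.4.6 were used for depth and sequences, and matplotlib 3.10.9 for figures. Fragments per mouse were estimated from the commonest lowest value times length in genes with 1 transcript over 1 kb, and fragments per gene from its longest transcript in GENCODE M21. Read counts were not used.

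Full statistics are given for members with an adjusted p under 0.05 and for the 3 with the smallest p in each comparison, values in every mouse also for the most abundant member of each role, and up to 4 called genes of each other list. Genes named outside this rule were chosen after their values were seen. The members and lists were chosen with earlier results of these data known. The lists were the 11 roles of the members, other quiescent stellate markers, collagen maturation, TGF-beta and CTGF signalling, PDGF ligands, matrix turnover, collagen receptors, and markers of hepatocytes, sinusoidal and vascular endothelium, Kupffer cells, recruited myeloid cells, lymphocytes, cholangiocytes, portal fibroblasts, mesothelium, smooth muscle and adipocytes.

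The alternatives dropped the level minimum or raised it to 10 FPKM, added 0.1 instead of 1, fitted all 9 mice together, turned off the eBayes trend, rescaled the mice by median of ratios or by quantiles, and left out each mouse in turn. Ratios with other genes in the sums were added after seeing the data. The fit was tested on simulated data.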

Additional observations from a re-analysis of the deposited data

How the results depend on the processing

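With 3 mice a group and collagen genes of a few FPKM, the counts below move with single mice and with the level minimum, which sets how many genes are tested. In every fit limma pools the spread of the groups fitted, also when a group is left with 2 mice. No paired analysis was possible because mouse numbers are not shared as pairs: HFD and PRF 50 share only number 3, ND and PRF 50 only number 9, and HFD and ND none. A minimum of 10 FPKM leaves no value for Col1a1, Col1a2, Col3a1, Mmp14 and Col6a1, and Col1a1 has none in HFD vs ND without HFD 2.

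Members with an adjusted p under 0.05 were 0 in each comparison, but 1 in HFD vs ND with all 9 mice in 1 fit and 0 to 1 with a mouse left out. Members with an unadjusted p under 0.05 were 4 in HFD vs ND, and 9 without the level minimum and 0 when it was raised to 10 FPKM (2 to 7 with a mouse left out). In PRF 50 vs HFD the 5 became 0 at the raised minimum (2 to 5), and in PRF 50 vs ND the 4 became 1 (1 to 6). Genes with an adjusted p under 0.05 went with no minimum from 133 to 37 in HFD vs ND (35 to 140 with a mouse left out), from 362 to 126 in PRF 50 vs HFD (15 to 242) and from 46 to 11 in PRF 50 vs ND (4 to 71), the last also to 107 with all 9 mice in 1 fit.

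The ratio of fibrillar to basement membrane sums, with alternatives chosen after seeing the data, was 2.16 for HFD vs ND and 1.56 with Pdgfrb, Pdgfra and Reln, 1.52 with Tagln and 1.63 with Lrat as the denominator (2.02 to 2.31 with a mouse left out). For PRF 50 vs HFD it was 0.642 and turned to 1.13 with Tagln (0.600 to 0.686). For PRF 50 vs ND it was 1.38 and became 1.06 with Pdgfrb, Pdgfra and Reln, 1.71 with Tagln and 1.03 with Lrat (1.30 to 1.46). The cause was not tested. Medians of the tested members ranged with a mouse left out from 0.05 to 0.27 in HFD vs ND, -0.04 to 0.16 in PRF 50 vs HFD and 0.10 to 0.38 in PRF 50 vs ND. The level minimum moved them too, from 0.08 to 0.02 with none and 0.23 at 10 FPKM in PRF 50 vs HFD, and from 0.21 to 0.35 at 10 FPKM in PRF 50 vs ND. The 3 members with the smallest p in each comparison kept their sign in every alternative that gave them a value. Only Col6a1 in PRF 50 vs ND overlapped between its groups. For the others, leaving out a mouse could not have reversed the sign, so those fits do not test it. In HFD vs ND, the adjusted p from limma with a mouse left out ranged from 0.0462 to 0.262 for Col1a1, 0.0374 to 0.300 for Col3a1 and 0.0982 to 0.341 for Col1a2. For Col1a1 in HFD vs ND it ranged from 0.0385 to 0.136 in the other alternatives. Without a trend, with either scaling or with a pseudocount of 0.1, the member counts stayed within 1.5 times. The 7 Kupffer cell marker calls in PRF 50 vs HFD were 0 to 6 with a mouse left out, 2 with no minimum and 4 with all 9 mice in 1 fit. In PRF 50 vs ND the 0 calls became 2 with all 9 mice in 1 fit and 0 to 2 with a mouse left out.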
